A study of Mus musculus with 24 samples.

Results

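The genes examined were 9 markers of inflammatory (Ly6C-high) monocytes, chosen by symbol as known markers, with earlier results of these data in view: Ly6c1, Ly6c2, Chil3, Plac8, F13a1, Hp, Vcan, Fn1 and Thbs1. All 9 were found among the 54446 gene identifiers counted in each library, and all 9 passed the count minimum of 10 counts in at least 3 libraries. CD11b+ myeloid cells had been sorted from MC38 tumours, a transplantable mouse colon carcinoma, growing under the skin of C57BL/6J mice (the growth protocol also names blood, the tissue label of each library names the tumour). WT mice were Ythdf2 fl/fl, and Ythdf2 cKO mice carried the same floxed alleles together with Lyz Cre, a recombinase expressed in monocytes, macrophages and neutrophils, so both genotypes shared the floxed alleles. Tumours were left untreated (Control, here Ctrl) or received a single dose of 20 Gy (Irradiation, here IR) with collection after 3 days. Each of these conditions was sequenced as polyadenylated RNA (Input) and as RNA fragments precipitated with an N6-methyladenosine antibody (m6A IP), in 3 libraries each, which gave 24 libraries in 8 groups. The methods call the replicates technical in one place and biological in another, and describe cells pooled from several mice, so SEs and p-values below measure the spread between libraries and not between animals.

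Inflammatory monocytes leave the bone marrow through the chemokine receptor CCR2, carry high Ly6C on their surface, and turn into macrophages or suppressive myeloid cells once they have entered a tumour, losing Ly6C on the way. Their marker genes serve different roles. Ly6c1 and Ly6c2 encode the Ly6C surface antigens, Chil3 a chitinase-like secreted lectin (Ym1), Plac8 a small cysteine-rich protein, F13a1 the transglutaminase subunit of coagulation factor XIII, and Hp the haemoglobin scavenger haptoglobin. Vcan (the proteoglycan versican), Fn1 (fibronectin) and Thbs1 (thrombospondin-1) encode matrix proteins that macrophages and stromal cells also make. YTHDF2 is a reader protein that recognises m6A on mRNA and speeds the decay of the bound transcript.

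Sequencing depth was even, at 65.2 to 83.7 M gene counts in the Inputs (M, mega, median 71.5 M) and 68.8 to 86.4 M in the IP libraries (median 73.4 M). Itgam, which encodes CD11b, lay at 354 to 449 CPM (counts scaled to the library's total) in the Inputs. Lyz2, the gene into which Cre was inserted, lay at 21537 to 23137 CPM in the WT Inputs, 323 to 331 CPM in the cKO Ctrl Inputs and 431 to 446 CPM in the cKO IR Inputs. In the IP libraries it lay at 15639 to 16499 CPM in WT Ctrl and 86.7 to 91.8 CPM in cKO Ctrl, but at 88.5 to 91.1 CPM in the libraries labelled WT IR and 19514 to 19805 CPM in those labelled cKO IR. The 6 irradiated IP libraries therefore went against their genotype labels, and they are called "labelled WT IR" and "labelled cKO IR" throughout. For these libraries the ratio of IP over Input was averaged over the 2 genotype labels, a value that does not change if the labels are exchanged. Ythdf2 counts over the whole gene were 103 to 115 CPM in the WT Inputs and 189 to 249 CPM in the Inputs labelled cKO, higher and not lower in the latter, but a count over the whole gene does not check the deletion, since it includes exons outside the floxed part. Among the Inputs, WT IR replicate 1 stood furthest from its group (chi-square per degree of freedom 46.2 and 21.6 against replicates 2 and 3). Replicates 2 and 3 of WT IR gave 11.3 between them, and pairs within the other Input groups gave 3.58 to 9.41. Without WT IR replicate 1, 6071 genes in place of 5100 were called in WT IR against WT Ctrl, the same number of members was called there, Hp passed the threshold in cKO IR against cKO Ctrl (edgeR adjusted p 0.0316), and F13a1 no longer passed in cKO IR against WT IR.

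Other cell types were followed through fixed marker lists. The summed Input level of 12 neutrophil genes (S100a8, S100a9, Csf3r, Cxcr2, Ly6g, Retnlg, Camp, Ltf, Ngp, Mmp8, Mmp9 and Lcn2) averaged 4488 CPM in WT Ctrl, 2023 in cKO Ctrl, 1049 in WT IR and 969 in cKO IR. Over the IP libraries the same sum averaged 959 in WT Ctrl, 1000.5 in cKO Ctrl, 960.4 in labelled WT IR and 877 in labelled cKO IR. The 6 genes of granulocyte-monocyte progenitors (Elane, Mpo, Prtn3, Ctsg, Ms4a3 and Fcnb) summed to 80.9 CPM in the WT Ctrl Inputs, 26.0 in cKO Ctrl, 0.368 in WT IR and 0.431 in cKO IR. Input and IP libraries of one condition thus differed in the levels of these granulocyte genes, and whether both came from the same pool of cells is not given in the sources used here. The 10 tumour macrophage genes summed to 4520.2 CPM in WT Ctrl, 4763 in cKO Ctrl, 4409 in WT IR and 4724 in cKO IR Inputs, a sum of which Apoe alone supplied 2606 CPM in WT Ctrl. None of 7 fibroblast genes (Col1a1 among them) and none of 4 B and plasma cell genes reached a mean of 1 CPM in any Input group. The counts reaching 1 CPM were 1 of 4 plasmacytoid dendritic genes, 2 of 6 T cell, 2 of 5 epithelial, 3 of 6 endothelial and 4 of 6 platelet genes. Input and IP also differed outside the granulocyte genes. In WT Ctrl the tumour macrophage sum averaged 4520.2 CPM in Input and 1038 in IP, and the epithelial sum 7.83 and 95.9. Antibody capture and a difference in cells cannot be told apart in these sums.

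All 9 genes are protein-coding and stand in the GRCm38 (mm10) build at the following positions. Ly6c1 (ENSMUSG00000079018.10) lies at chr15:75044018-75048830 and Ly6c2 (ENSMUSG00000022584.14) at chr15:75108158-75111970. Chil3 (ENSMUSG00000040809.10) lies at chr3:106147554-106167564, Plac8 (ENSMUSG00000029322.12) at chr5:100553725-100572245, F13a1 (ENSMUSG00000039109.16) at chr13:36867178-37050244 and Hp (ENSMUSG00000031722.10) at chr8:109575128-109579172. Vcan (ENSMUSG00000021614.16) lies at chr13:89655312-89742509, Fn1 (ENSMUSG00000026193.15) at chr1:71585520-71653200 and Thbs1 (ENSMUSG00000040152.8) at chr2:118111876-118127133. Thbs1 is on the plus strand and the other 8 genes are on the minus strand. Vcan, F13a1, Fn1 and Thbs1 overlap antisense genes whose summed counts over the 12 Inputs were 325, 14, 126 and 133. A strand setting is given for the alignment and not for the counting, so reads of these genes and of their antisense partners may not have been told apart.

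The Ly6C pair needs care, because the 2 coding sequences are identical at 384 of 393 bases (97.7%). Of all 100-base windows along each transcript, 15.3% of those in Ly6c1 and 15.8% of those in Ly6c2 occurred unchanged in the other gene. The stretch below, coding bases 8 to 36 on the minus strand, is shown because it holds 5 of the differences that let a read be assigned to one gene, each in capitals. Chil3 shared 5.42% of its windows with other genes, mostly Chil4, and the other 6 members shared none.
Ly6c1 (chr15:75048476-75048504): CtTctcacActacaaagtcctgtGtgctC
Ly6c2 (chr15:75111632-75111660): GtActcacGctacaaagtcctgtTtgctG

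Per kilobase of exon, with the exons of all annotated transcripts of a gene merged, the order of mean Input levels was Thbs1, Hp, Chil3, Fn1, Ly6c2, Vcan, F13a1, Plac8 and Ly6c1. Thbs1 stood at 485 CPM per kilobase (423 to 559 over the 12 Inputs), above every Input of every other member. Hp followed at 222 (127 to 281), Chil3 at 199 (81.3 to 364) and Fn1 at 70.8 (46.0 to 86.3), and the ranges of neighbours among these 3 overlapped. On this length Ly6c2 stood apart from both neighbours at 33.3 (19.8 to 42.4). The Ly6c2 transcript used for the windows above has 822 bases, against 2740 bases of merged exon. For Fn1 these lengths are 8315 and 11685 bases, so the order of Fn1 and Ly6c2 depends on the length chosen. Vcan reached 4.73 (4.15 to 6.18), F13a1 2.83 (1.18 to 5.2), Plac8 1.35 (0.0211 to 3.70) and Ly6c1 0.132 (0.0751 to 0.212), and each of these ranges overlapped the next. Nearly all Ly6C signal in these cells was counted on Ly6c2, and Ly6c1 rested on 8 to 24 counts per Input, a level at which reads shared with Ly6c2 leave it uncertain. Across the 12 Inputs, the highest level exceeded the lowest 1.32-fold for Thbs1, 1.49-fold for Vcan, 1.87-fold for Fn1, 2.14-fold for Ly6c2, 2.22-fold for Hp, 4.39-fold for F13a1, 4.47-fold for Chil3 and 175-fold for Plac8. The lowest Plac8 level came from 1 library with 2 counts, and without it the range was 37.4-fold.

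**Figure D1:**
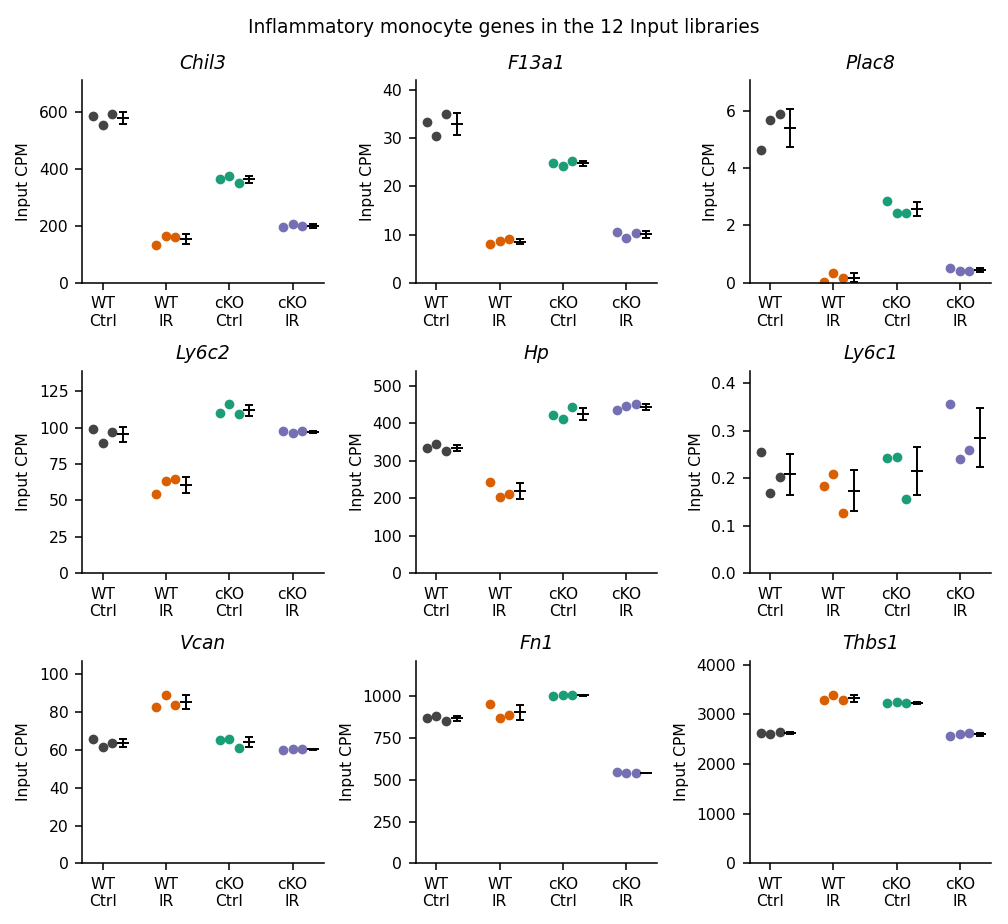
Input level in CPM (vertical axes, from 0) of each gene in the 12 Input libraries, as points by group, with the mean and SD of 3 libraries in black. Chil3, F13a1 and Plac8 fell in both genotypes after IR, Ly6c2 and Hp lay lowest in WT IR, Vcan lay highest there, and Fn1 lay lowest in cKO IR.

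The first question was what irradiation did to these transcripts in WT cells. Of the 9 members, 7 were called, 5 lower and 2 higher, where 31.7% of all 16090 tested genes were called in either direction, 17.0% lower and 14.7% higher. The median log2 fold change of the 9 was −0.60, against 0.01 over all tested genes. The 3 libraries of each group did not overlap for 7 members, as for 39.8% of all genes. The fall covered the secreted and intracellular markers and Ly6c2, whereas 2 matrix genes rose. Fewer monocytes and less RNA per monocyte cannot be told apart in bulk libraries.

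Chil3 fell in both genotypes. Its WT Ctrl Inputs held 588, 556 and 593 CPM and its WT IR Inputs 133, 164 and 162 CPM. Every irradiated library lay far below every control library, a 3.78-fold fall (log2 fold change −1.92, SE 0.0588, edgeR adjusted p 2.46e-15). In cKO the Inputs held 365, 375 and 351 CPM in Ctrl and 195, 208 and 199 CPM in IR, again without overlap but with a smaller fall of 1.79-fold (log2 fold change −0.84, SE 0.0572, edgeR adjusted p 2.78e-10). The difference between the 2 irradiation effects, cKO minus WT, was 1.07 log2 units (SE 0.0807, edgeR adjusted p 1.57e-08). Chil3 is made by neutrophils as well as monocytes.

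F13a1 followed the same course at a lower level. It stood at 33.3, 30.5 and 35.0 CPM in WT Ctrl and 7.98, 8.67 and 9.02 CPM in WT IR, a 3.84-fold fall (log2 fold change −1.94, SE 0.0717, edgeR adjusted p 5.06e-14). The cKO Inputs gave 24.8, 24.2 and 25.3 CPM in Ctrl and 10.6, 9.33 and 10.3 CPM in IR, a 2.44-fold fall (log2 fold change −1.29, SE 0.0705, edgeR adjusted p 1.38e-11). No irradiated library reached a control library in either genotype, and the fall was smaller in cKO by 0.65 log2 units (SE 0.10, edgeR adjusted p 4.46e-05).

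Plac8 was nearly lost after irradiation in WT. The WT Ctrl Inputs held 4.64, 5.66 and 5.88 CPM (310 to 408 counts), whereas the WT IR Inputs held 0.0336, 0.355 and 0.157 CPM (2, 22 and 10 counts). The fitted change was −4.86 log2 units, 29-fold lower (SE 0.310, edgeR adjusted p 1.78e-10). The size rests on few counts, since leaving out WT IR replicate 2 gave −5.76 and leaving out replicate 1 gave −4.38. In cKO, Plac8 went from 2.85, 2.44 and 2.42 CPM to 0.519, 0.406 and 0.405 CPM (25 to 35 counts), a 5.71-fold fall (log2 fold change −2.51, SE 0.275, edgeR adjusted p 2.28e-07). The groups did not overlap in either genotype, and the 2 effects differed by 2.35 log2 units (SE 0.450, edgeR adjusted p 0.000441), or by 3.25 without WT IR replicate 2.

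These 3 genes moved beside the granulocyte markers. All 12 neutrophil genes were called lower in WT IR against WT Ctrl and 11 of 12 in cKO IR against cKO Ctrl, with medians of −2.21 and −1.08 on the log2 scale. The 6 progenitor genes summed to only 0.368 CPM in WT IR and 0.431 CPM in cKO IR Inputs. Their presence in these tests rested on the Ctrl Inputs, so their calls are not counted here. Over all genes, 17.0% in WT and 23.8% in cKO were called lower. Plac8 and Chil3 are also transcribed in granulocytes and their precursors, and the part of those cells in the falls was not tested.

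Ly6c2, which carries nearly all the Ly6C signal, fell less. It stood at 99.4, 89.8 and 97.1 CPM in WT Ctrl and 54.2, 63.0 and 64.5 CPM in WT IR, a 1.57-fold fall (log2 fold change −0.65, SE 0.0546, edgeR adjusted p 1.06e-08). In cKO the values were 110.1, 116 and 109 CPM in Ctrl and 97.5, 96.2 and 97.6 CPM in IR, a 1.14-fold fall (log2 fold change −0.19, SE 0.0534, edgeR adjusted p 0.0059). Neither pair of groups overlapped, and the irradiated cKO libraries stayed within the range of the WT Ctrl libraries. The effects differed by 0.46 log2 units (SE 0.0763, edgeR adjusted p 0.000107).

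Hp split the genotypes. Its WT Inputs fell from 333, 344 and 327 CPM to 244, 203 and 212 CPM, a 1.52-fold fall without overlap (log2 fold change −0.60, SE 0.0491, edgeR adjusted p 6.35e-09). The cKO Inputs held 421, 412 and 444 CPM in Ctrl and 435, 447 and 451 CPM in IR. These 2 groups overlapped, and the change missed the threshold (log2 fold change 0.08, 95% interval −0.02 to 0.17, edgeR adjusted p 0.227). The test of the difference gave 0.68 log2 units (SE 0.0689, edgeR adjusted p 4.43e-07).

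Ly6c1 was too rare to compare. Its Inputs held 0.255, 0.169 and 0.202 CPM in WT Ctrl, 0.243, 0.245 and 0.157 CPM in cKO Ctrl, 0.185, 0.210 and 0.126 CPM in WT IR and 0.356, 0.241 and 0.259 CPM in cKO IR. Ctrl and IR overlapped in both genotypes, with a log2 fold change of −0.26 in WT (95% interval −1.21 to 0.69) and 0.42 in cKO (−0.48 to 1.32). A change of the size seen in Ly6c2 was not detectable at this depth.

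The matrix genes took another course. Vcan rose in WT from 65.6, 61.5 and 63.9 CPM to 82.6, 89.3 and 83.8 CPM, 1.34-fold and without overlap (log2 fold change 0.43, SE 0.0431, edgeR adjusted p 1.51e-07). In cKO it stood at 65.2, 66.1 and 61.2 CPM in Ctrl and 60.1, 60.6 and 60.6 CPM in IR. All 3 irradiated cKO libraries lay just below the 3 controls, yet the difference missed the threshold (log2 fold change −0.07, 95% interval −0.16 to 0.01, edgeR adjusted p 0.188). Between the 2 effects the difference was −0.50 log2 units (SE 0.0611, edgeR adjusted p 3.61e-06).

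Thbs1, the most abundant member, changed in opposite directions. WT Inputs rose from 2621, 2610.1 and 2638 CPM to 3279, 3397 and 3282 CPM (1.27-fold, log2 fold change 0.34, SE 0.0235, edgeR adjusted p 4.92e-10). In cKO the Inputs fell from 3223, 3247 and 3217 CPM to 2567, 2607 and 2630.1 CPM (1.23-fold, log2 fold change −0.30, SE 0.0235, edgeR adjusted p 2.47e-09). Neither pair overlapped, and the effects differed by −0.64 log2 units (SE 0.0333, edgeR adjusted p 8.11e-11). The irradiated cKO libraries overlapped those of WT Ctrl.

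Fn1 was called in cKO and not in WT. In cKO it went from 1001, 1003 and 1008 CPM to 543, 538 and 538 CPM, a 1.84-fold fall (log2 fold change −0.88, SE 0.0314, edgeR adjusted p 3.89e-14). WT Ctrl Inputs held 867, 882 and 849 CPM and WT IR Inputs 951, 868 and 886 CPM, which overlapped (log2 fold change 0.06, 95% interval 0.00 to 0.12, edgeR adjusted p 0.138). Without WT IR replicate 2 the WT change was 0.09 and passed the threshold (edgeR adjusted p 0.0252). The 2 effects differed by −0.94 log2 units (SE 0.0441, edgeR adjusted p 1.57e-11).

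Across the cKO comparison, 6 of the 9 members were called, each of them lower, where 45.6% of all genes were called and 23.8% were called lower, and 7 members did not overlap between the groups, as for 55.7% of all genes. The median of the 9 was −0.30, against 0.01 over all tested genes. The difference between the irradiation effects was called for 8 of the 9, against 30.2% of all genes. It was positive for Chil3, F13a1, Plac8, Ly6c2 and Hp and negative for Vcan, Fn1 and Thbs1.

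**Figure D2:**
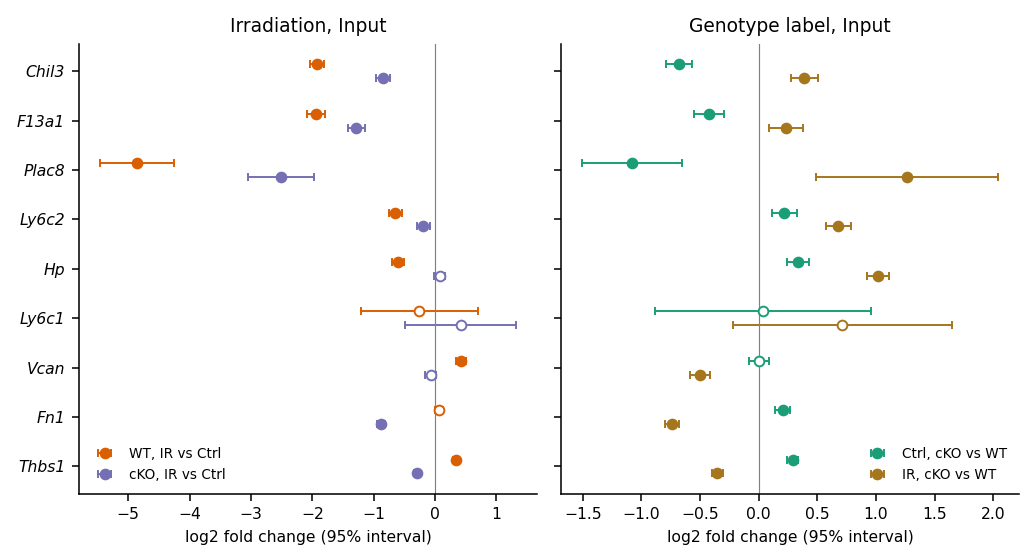
Log2 fold change with its 95% interval in the Inputs (horizontal axes), for irradiation in WT and cKO on the left and for cKO against WT in Ctrl and IR on the right, with filled points where the edgeR adjusted p was under 0.05 and open points where it was not. On the left the WT points of Chil3, F13a1, Plac8 and Ly6c2 lie further below 0 than the cKO points and Hp lies below 0 in WT alone, and on the right Fn1 and Thbs1 lie above 0 in Ctrl and below 0 in IR.

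The second question was how the genotypes differed at each treatment. Without irradiation, 7 of 9 members were called in cKO against WT, 3 lower and 4 higher, where 15.7% of all genes were called (7.61% lower and 8.05% higher), and the groups did not overlap for 7 members, as for 36.5% of all genes. The lower ones were 3 of the markers that fell with irradiation, Chil3 by 1.6-fold (579 ± 20.5 CPM in WT and 363 ± 11.8 in cKO, SD, n = 3; edgeR adjusted p 3.14e-08), Plac8 by 2.11-fold (5.40 ± 0.662 and 2.57 ± 0.244 CPM; edgeR adjusted p 0.00156) and F13a1 by 1.34-fold (edgeR adjusted p 0.000106). The higher ones were Hp at 1.26-fold (335 ± 8.62 and 426 ± 16.0 CPM; edgeR adjusted p 4.54e-05), Thbs1 at 1.22-fold (edgeR adjusted p 2.16e-08), Ly6c2 at 1.16-fold (edgeR adjusted p 0.00676) and Fn1 at 1.15-fold (edgeR adjusted p 8.18e-05). The call of Ly6c2 was lost without WT Ctrl replicate 2 (edgeR adjusted p 0.0532). Neutrophil markers moved with the lower ones, 11 of 12 called lower in cKO Ctrl and 1 (Csf3r) higher, and all 6 progenitor genes were called lower. Of the 10 tumour macrophage genes 6 were called higher and 1 lower, with C1qa at 0.73 on the log2 scale. The part of these cell types in the member differences was not tested.

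After irradiation, 8 of 9 members were called in cKO against WT, 5 higher and 3 lower, where 47.7% of all genes were called, and all 9 did not overlap between the groups, as for 52.0% of all genes. Hp stood 2.02-fold higher in cKO (219.7 ± 21.4 CPM in WT and 444 ± 8.58 in cKO, SD, n = 3; log2 fold change 1.02, SE 0.0493, edgeR adjusted p 2.46e-12). Ly6c2 was 1.6-fold higher (60.6 ± 5.60 and 97.1 ± 0.793 CPM; log2 fold change 0.68, SE 0.0547, edgeR adjusted p 3.05e-09) and Chil3 1.31-fold higher (153 ± 17.5 and 200.5 ± 6.59 CPM; log2 fold change 0.39, SE 0.0576, edgeR adjusted p 1.05e-05). F13a1 was 1.18-fold higher (edgeR adjusted p 0.0149), a call lost on leaving out replicate 1 of WT IR (0.0602) or of cKO IR (0.0709). Plac8 was 2.41-fold higher (log2 fold change 1.27, SE 0.396, edgeR adjusted p 0.0121), a call lost without cKO IR replicate 1 (0.0510) and with only the 6 libraries of the comparison fitted (0.0968), and its log2 fold change was 2.17 without WT IR replicate 2. The matrix genes were lower in cKO, Fn1 by 1.67-fold (902 ± 43.8 and 539.8 ± 2.74 CPM; log2 fold change −0.74, SE 0.0313, edgeR adjusted p 3.52e-13), Vcan by 1.41-fold (log2 fold change −0.50, SE 0.0433, edgeR adjusted p 9.1e-09) and Thbs1 by 1.28-fold (log2 fold change −0.35, SE 0.0235, edgeR adjusted p 2.12e-10). Most neutrophil genes ran against Chil3, Hp and Ly6c2 here, since 9 of 12 were called lower and 2 (Mmp9 and Lcn2) higher in cKO IR. Tumour macrophage genes went the other way, 6 of 10 called higher and 2 lower (median 0.42, C1qa 0.83), as did 5 of 8 non-classical monocyte genes, with 2 lower, where 23.9% of all genes were called higher and 23.8% lower. Of the endothelial genes, Vwf moved with the matrix members, at 199 CPM in WT IR and 122 CPM in cKO IR (log2 fold change −0.70, SE 0.0341, edgeR adjusted p 2.58e-12), while Cdh5, Emcn and Tie1 lay below 1 CPM in every Input group. The part of these cell types in the member differences was not tested. For Ly6c1 the log2 fold change was 0.71 (95% interval −0.22 to 1.65, edgeR adjusted p 0.236).

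Other classical monocyte genes gave a wider view, with 18 on the list. Irradiation in WT lowered 12 and raised 2 of them, the falls including Ifitm6 (log2 fold change −2.60, SE 0.152, edgeR adjusted p 4.5e-11) and Ms4a4c (log2 fold change −1.50, SE 0.256, edgeR adjusted p 0.000112), and the rises being the C-type lectins Clec4d (0.20) and Clec4e (0.17). In cKO irradiation lowered 6 and raised 9, with Ifitm6 at −1.34 and the chemokine receptor Ccr2 at −1.06, and Clec4e at 0.66, Clec4d at 0.64 and S100a4 at 0.50 on the log2 scale. Over all genes, irradiation lowered 17.0% and raised 14.7% in WT, and lowered 23.8% and raised 21.8% in cKO. The median over the 18 was −0.31 in WT and 0.03 in cKO, beside 0.01 over all genes in both. Between the irradiated genotypes 15 of 18 were called higher in cKO, where 23.9% of all genes were called higher and 23.8% lower. These were led by Ms4a4c (1.55), the Fc receptor gene Fcgr1 (1.25) and Ms4a6c (1.19). The transcription factor gene Klf4 was the 1 called lower (−0.47). The effects of irradiation differed for 14 of 18, each higher in cKO, including Ifitm6 at 1.26 and Ms4a4c at 0.98. In Ctrl, 7 were higher and 4 lower in cKO, with Fcgr1 at 0.74, where 8.05% of all genes were higher and 7.61% lower.

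Genes of the non-classical (Ly6C-low) monocyte, 8 in number, were called lower for 6 after irradiation in WT and for 6 in cKO, with medians of −0.81 and −0.47. Cx3cr1, the fractalkine receptor, fell by 1.31 in WT and by 1.14 in cKO, and Nr4a1, the transcription factor these cells need, fell by 1.18 and 1.06 on the log2 scale. Of receptors and partners of the matrix members, 11 of 12 could be tested, and the count of calls after irradiation was 3 lower and 3 higher in WT and 4 lower and 1 higher in cKO, near the shares over all genes (17.0% lower and 14.7% higher in WT, 23.8% and 21.8% in cKO). Cd36, a thrombospondin-1 receptor, rose by 0.18 in WT and by 0.28 in cKO, and Itga5, the alpha chain of the fibronectin receptor, fell by 0.21 and 0.47. Between irradiated genotypes 8 were lower and 2 higher in cKO, where 23.8% of all genes were called lower and 23.9% higher. The fall was led by Itgb3 (−0.48), Itga4 (−0.38) and Itgav (−0.37), the same direction as Fn1, Vcan and Thbs1.

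Likeness across the 12 Inputs was measured as Pearson's r of log2(CPM + 1) among 12169 genes with a mean of at least 50 counts per Input, and it mainly describes the 4 condition means, since the libraries come in 4 groups of 3. Chil3, Plac8 and F13a1 were alike at r = 0.980 to 0.990, Ly6c2 and Hp at 0.880, and Thbs1 was nearest to Vcan at 0.715 and to Fn1 at 0.673. Vcan ran against Hp (−0.942) and Ly6c2 (−0.879). The genes most like Chil3 were Ifitm6 (0.991), Rhou (0.991) and Cip2a (0.989), and those most like Plac8 were Ifitm6 (0.990), Stfa3 (0.989) and Hmmr (0.988). F13a1 went closest with Ccna2 (0.997), Kif11 (0.996) and Lbr (0.994), of which Ccna2 and Kif11 are genes of dividing cells. Ly6c2 was nearest to Sla (0.982), Fam49b (0.979) and Ly86 (0.978), and Hp to Ncf4 (0.991), H2-Ab1 (0.988) and Nr1h3 (0.987). For Vcan they were Zfp366 (0.984), Asap2 (0.977) and Palld (0.977), for Fn1 Bcor (0.994), Hivep3 (0.986) and Myo9b (0.986), and for Thbs1 Abca1 (0.982), Abcg1 (0.960) and Csf2rb (0.954). Ly6c1 was under the count minimum for this measure.

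**Figure D3:**
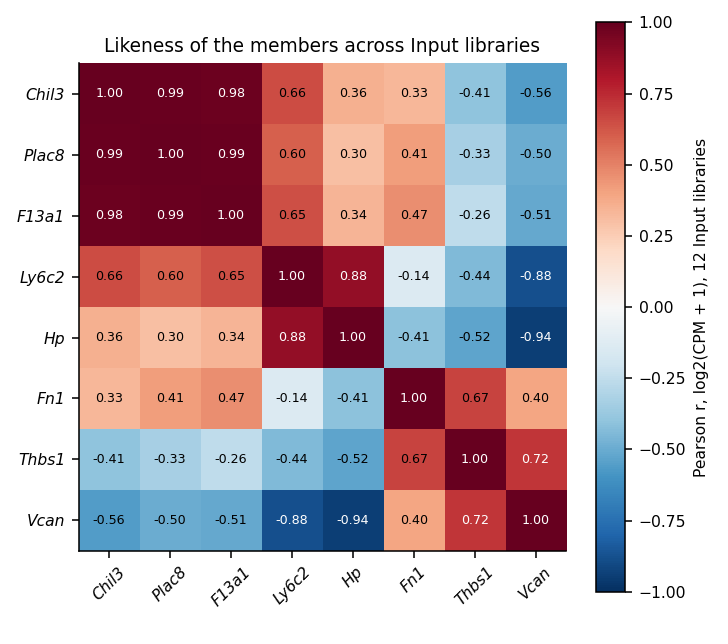
Pearson's r of log2(CPM + 1) between 8 members over the 12 Input libraries, from −1 (blue) to 1 (red), with r printed in each square. Chil3, Plac8 and F13a1 form one block with r from 0.98 to 0.99, Ly6c2 and Hp another at 0.88, and Vcan runs against both of the latter.

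The third question was how the level of each transcript in the m6A IP compared with its Input level. In WT Ctrl, IP over Input was called for 8 of 9 members, 6 lower and 2 higher, where 75.5% of all 17373 tested genes were called (37.5% lower and 38.1% higher), and 8 did not overlap, as for 78.4% of all genes. Since IP libraries are scaled to their own totals, a value below 0 means a lower IP level relative to Input than for the typical transcript, not an absence of m6A. Whether Input and IP came from the same pool of cells is not given, so capture and a difference in cells cannot be told apart. Vcan was the most enriched, with IP libraries at 229, 232 and 233 CPM against Inputs at 63.7 ± 2.07 CPM (SD, n = 3), 3.63-fold higher (log2 fold change 1.86, SE 0.0378, edgeR adjusted p 1.2e-29). Hp followed with IP libraries at 566, 559 and 553 CPM, 1.67-fold above the Inputs (log2 fold change 0.74, SE 0.0420, edgeR adjusted p 3.81e-17). Both transcripts lay clear of their Inputs in every library. Thbs1 had the lowest estimate, at 732, 729 and 758 CPM in the IP against 2623 ± 14.1 CPM in the Input, 3.55-fold lower (log2 fold change −1.83, SE 0.0214, edgeR adjusted p 5.11e-36). Plac8 at −1.76 (95% interval −2.24 to −1.27) was not separated from Thbs1, and F13a1 at −0.78, Fn1 at −0.68, Ly6c2 at −0.67 and Chil3 at −0.48 (log2 scale) lay between.

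In cKO Ctrl, 8 of 9 were again called, 5 lower and 3 higher, where 73.7% of all genes were called (36.0% lower and 37.8% higher), and 8 did not overlap, as for 76.7% of all genes. The member that changed side was Chil3. Its cKO Ctrl IP libraries held 595, 565 and 579 CPM against 414, 424 and 405 CPM in WT Ctrl, while its Input was lower in cKO, so IP over Input went from −0.48 in WT to 0.67 in cKO (difference 1.16 log2 units, SE 0.0646, edgeR adjusted p 1.58e-15). Fn1 went the other way, with IP libraries at 351, 362 and 352 CPM in cKO and 542, 538 and 546 CPM in WT, and a ratio of −1.50 against −0.68 (difference −0.83, SE 0.0387, edgeR adjusted p 1.94e-17). Differences were smaller for Vcan (−0.40, edgeR adjusted p 3.81e-07), Hp (−0.29, 0.000285) and Thbs1 (−0.13, 0.00149). In all, 5 of 9 members were called for this difference, 4 lower and 1 higher, against 22.6% of all genes (12.5% lower and 10.1% higher). The neutrophil and progenitor lists moved with Chil3 here, with 10 of 12 and 6 of 6 genes higher in this difference, and their part in it was not tested.

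Between the IP libraries themselves, cKO Ctrl against WT Ctrl was called for 5 of 9 members, against 26.7% of all genes, with Chil3 at 0.49 and Thbs1 at 0.17 higher and Fn1 at −0.61, F13a1 at −0.50 and Vcan at −0.38 lower (log2 scale). Plac8 missed the threshold there (−0.68, edgeR adjusted p 0.0518). The libraries of 6 members did not overlap, as for 40.2% of all genes. The libraries labelled cKO IR against those labelled WT IR differed for 6 of 9, against 35.8% of all genes (18.8% lower and 17.0% higher), with Vcan (0.47), Fn1 (0.34) and F13a1 (0.18) higher and Chil3 (−0.46), Ly6c2 (−0.36) and Thbs1 (−0.31) lower under that label. Here 7 did not overlap, as for 47.1% of all genes. The sign of these 6 values depends on labels that Lyz2 went against.

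**Figure D4:**
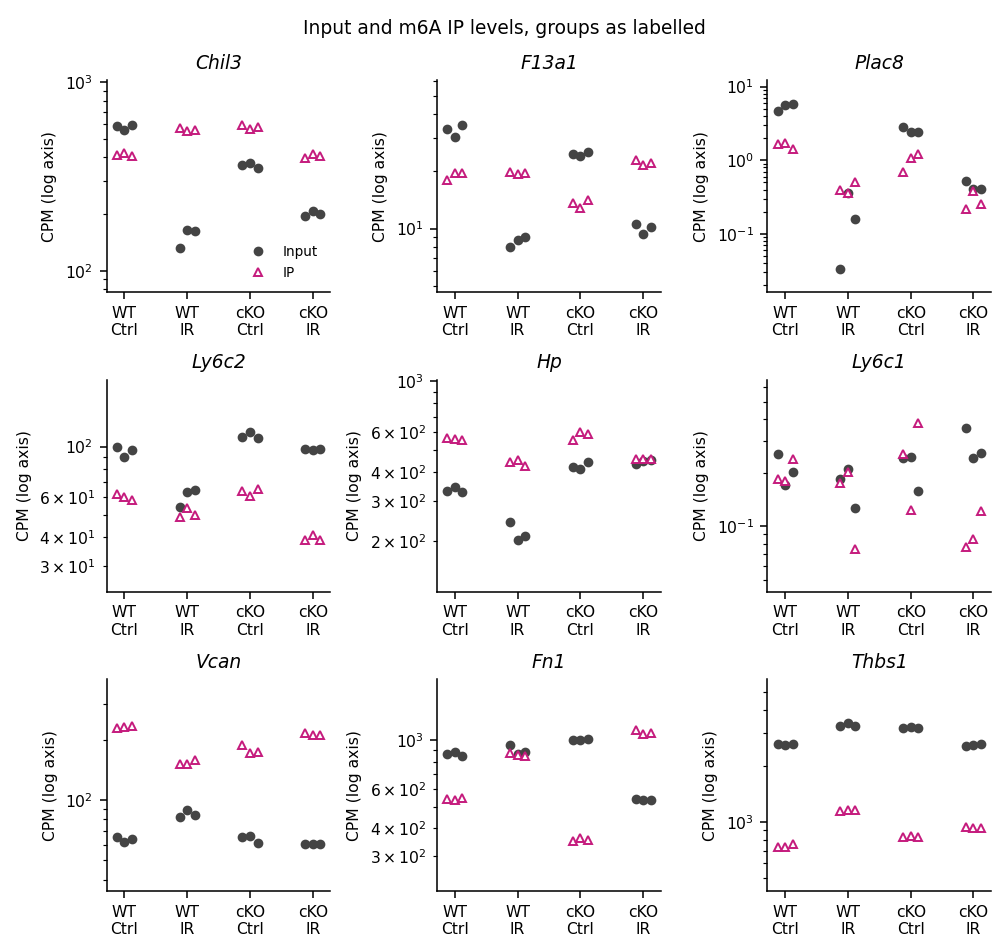
Level in CPM on a log axis of each gene in the 3 Input (grey circles) and 3 m6A IP (magenta triangles) libraries of each group as labelled. Vcan IP libraries lie above the Inputs in every group and Thbs1 IP libraries below, whereas Chil3, F13a1 and Fn1 change side between groups.

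After irradiation, averaged over the 2 genotype labels, IP over Input was called for 8 of 9 members, 3 lower and 5 higher, where 80.3% of all genes were called (40.2% lower and 40.1% higher). Chil3 stood at 1.45, Vcan at 1.33, F13a1 at 1.17, Hp at 0.53 and Fn1 at 0.47, and Thbs1 at −1.50, Ly6c1 at −0.89 and Ly6c2 at −0.77 (log2 scale). The call of Ly6c1 rested on 6 to 15 IP counts per library and was lost on leaving out any of 6 libraries (edgeR adjusted p 0.0576 to 0.0876), which were WT IR Input replicates 1 and 2, cKO IR Input replicate 1, IP replicate 3 labelled WT IR and IP replicates 1 and 2 labelled cKO IR. Plac8 was at 0.29 (edgeR adjusted p 0.305), or 0.75 and called without WT IR Input replicate 2.

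The change of IP over Input from Ctrl to IR, averaged the same way, was called for 6 of 9 members, 5 higher and 1 lower, where 48.4% of all genes were called (25.3% higher and 23.1% lower). F13a1 rose by 2.0 log2 units (SE 0.0639, edgeR adjusted p 1.45e-22). Its IP libraries held 18.1, 19.6 and 19.7 CPM in WT Ctrl and 13.6, 12.8 and 14.1 CPM in cKO Ctrl, and 19.9, 19.5 and 19.5 CPM in labelled WT IR and 23.0, 21.7 and 22.2 CPM in labelled cKO IR. Its IP level thus lay between 12.8 and 23.0 CPM while the Input level fell from 24.2 to 35.0 CPM in Ctrl to 7.98 to 10.6 CPM in IR.

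Chil3 gave the same picture, with a rise of 1.36 (SE 0.0460, edgeR adjusted p 5.6e-22). The IP libraries held 571, 554 and 558 CPM in labelled WT IR and 399, 418 and 409 CPM in labelled cKO IR, and the 6 Ctrl IP libraries held 405 to 595 CPM. Plac8 rose by 1.85 (SE 0.314, edgeR adjusted p 6.68e-06), on 20 to 41 IP counts per irradiated library. All 12 neutrophil genes were also called higher in this change, with a median of 1.51, where 25.3% of all genes were called higher. The 6 progenitor genes are not counted here, since they summed to only 0.368 CPM in WT IR and 0.431 CPM in cKO IR Inputs. The part of the neutrophil and progenitor genes in the rises of Chil3, F13a1 and Plac8 was not tested.

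For Fn1 the IP level itself was higher in IR. It stood at 877, 856 and 845 CPM in labelled WT IR and 1111, 1068 and 1079 CPM in labelled cKO IR, above all 6 Ctrl IP libraries (351 to 546 CPM), and the ratio rose by 1.56 (SE 0.0275, edgeR adjusted p 2.04e-29). Thbs1 IP libraries were also higher in IR, at 1152, 1159 and 1161 CPM and 939, 931 and 924 CPM, and its ratio rose by 0.39 (SE 0.0208, edgeR adjusted p 7.48e-17). Vcan was the one called fall, at −0.33 (SE 0.0370, edgeR adjusted p 3.22e-09). The changes of Hp (−0.07, 95% interval −0.15 to 0.02) and Ly6c2 (−0.03, −0.12 to 0.07) missed the threshold.

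The last question was where on the transcripts m6A peaks lay. The authors called peaks per library and strand, and a consensus stretch is one covered by a peak in all 3 libraries of a group. Members with at least 1 consensus stretch numbered 2 of 9 in WT Ctrl (Vcan and Hp), where 27.6% of 17367 genes had one. They numbered 3 in cKO Ctrl (Vcan, Hp and Chil3; 25.7% of genes), 5 in labelled WT IR (Vcan, Hp, Chil3, Fn1 and F13a1; 23.2%) and 3 in labelled cKO IR (Vcan, Chil3 and Fn1; 20.8%). With a minimum of 4-fold enrichment these 4 counts were 1, 2, 1 and 2, so 4 of the 5 members in labelled WT IR no longer had one. No test compared peaks between groups, and a fold enrichment also depends on the level in the control library. Ly6c1, Plac8 and Thbs1 had no peak in any of the 12 IP libraries, and Ly6c2 had 1 peak, in 1 library labelled WT IR (fold enrichment 1.33). For Ly6c1 and Plac8 the counts were few, whereas Thbs1 was the most abundant member, with 55550 to 93370 counts per IP library.

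Sequence stretches of 29 bases that carried strong or recurrent peaks are printed here on the minus strand of GRCm38. In the first 3 the capitals mark GGACT, a common form of the m6A motif, found within 50 bases of a summit, and in the last 3, where no such motif lay in the window, the capital marks the summit base of the peak, in labelled cKO IR for Fn1 and in labelled WT IR for Chil3 and F13a1.
Vcan, 3′ UTR (chr13:89656515-89656543): cgcctgaatggaGGACTtttctatgacct
Vcan, last coding exon (chr13:89657327-89657355): ctgcataccaaaGGACTtattctaagaaa
Hp, last exon (chr8:109575926-109575954): atctcccgccacGGACTcaccaccggggc
Fn1, coding exon 31 (chr1:71606019-71606047): cttacagaaattgaCaagccgtcccagat
Chil3, coding exon 3 (chr3:106164225-106164253): gctaaggacaggccAatagaagggagttt
F13a1, 3′ UTR (chr13:36867618-36867646): gtgccaaggctccaAcagacaagattatt

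Vcan was the one member with peaks in every library, 10 to 14 of them. Its consensus stretches numbered 12 in both WT Ctrl and cKO Ctrl, 9 in labelled WT IR and 13 in labelled cKO IR, and all 9 of labelled WT IR overlapped stretches of each other group. Most lay in coding exons, with exon 8 holding the largest number, and others lay in exons 4, 6, 7, 14 and 15 and in the 3′ UTR. By summit, introns held 3 in WT Ctrl, 2 in cKO Ctrl, 1 in labelled WT IR and 2 in labelled cKO IR. Each of these stretches also overlapped an exon. The 3′ UTR site, 705 bases past the stop codon, was covered by a peak in 11 of 12 libraries with fold enrichments of 4.26 to 8.60. The site 107 bases before the stop codon was covered in all 12 libraries at 1.98 to 7.63. In labelled cKO IR, Fn1 had more peaks than Vcan.

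Chil3 peaks differed between the groups. The peak in coding exon 3 reached fold enrichments of 11.8, 10.4 and 8.76 in labelled WT IR, 4.46, 4.86 and 5.85 in labelled cKO IR and 4.93, 5.34 and 4.05 in cKO Ctrl, and was not called in the 3 WT Ctrl libraries. In all, Chil3 had 7 consensus stretches in labelled WT IR, 4 in labelled cKO IR and 3 in cKO Ctrl, and every stretch of the latter 2 sets overlapped one of the first. By summit, 3 of the 7, 1 of the 4 and 1 of the 3 lay in introns, though each stretch overlapped an exon. WT Ctrl libraries had 1, 0 and 1 peaks, near exon 10, with fold enrichments of 1.80 and 1.79. The Chil3 IP levels of WT Ctrl overlapped those of labelled cKO IR, whereas its Input level was highest in WT Ctrl.

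Fn1 had 20, 21 and 20 peaks in the libraries labelled cKO IR and 5, 7 and 7 in those labelled WT IR. In WT Ctrl there were 2 peaks, in 1 library, and cKO Ctrl had none in its 3 libraries. The 17 consensus stretches of labelled cKO IR comprised 15 in coding sequence, 1 in the 5′ UTR and 1 in the 3′ UTR, with fold enrichments up to 4.16 at their summits. All 3 stretches of labelled WT IR overlapped them, which is 17.6% of the 17. The exon 31 stretch printed above had the highest of these, at 3.86 to 4.16. A peak of 10.5-fold and one of 8.02-fold lay in introns, each in 1 library labelled cKO IR. Fn1 peaks were thus seen where the IP level was highest. The Fn1 Input level was lowest in cKO IR, with a mean of 540 CPM, against 866 in WT Ctrl, 902 in WT IR and 1004 in cKO Ctrl. Which Input served as control for these peaks is not given, and its part in them was not tested.

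F13a1 had a 3′ UTR peak with fold enrichments of 8.39, 4.95 and 3.57 in labelled WT IR, and of 8.11 and 4.54 in 2 of the 3 libraries labelled cKO IR. No Ctrl library had a peak on F13a1. Hp peaks shared by all libraries of a group were weak and lay in the last exon, with 2 consensus stretches in WT Ctrl (up to 1.79), 2 in labelled WT IR (up to 2.24) and 1 in cKO Ctrl (up to 1.53). Replicate 2 of labelled WT IR also had a peak of 7.21-fold in an Hp intron. The Hp site printed above was covered in 9 of 12 libraries, the 3 libraries labelled cKO IR being the others. Hp was thus enriched in the IP with low shared peaks, whereas the F13a1 peaks in more than 1 library lay mainly at 1 site.

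The motif GGACT, searched on the transcribed strand alone in windows of 101 bases around the summit, lay in 4 of 14 consensus stretches of the members in WT Ctrl, 3 of 16 in cKO Ctrl, 3 of 22 in labelled WT IR and 2 of 34 in labelled cKO IR. Over all consensus stretches the share was 11.5%, 11.2%, 11.1% and 12% of windows in these groups. Stretches of one gene share its sequence, and Vcan and Fn1 supply most of them. A match is a run of letters and not a measured site. Other forms of the m6A motif were not searched, so a stretch without GGACT may hold one of them.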

How the data were processed

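Counts per gene of 12 Input and 12 m6A IP libraries were analysed in the groups and replicates that the labels give. Following the study's methods and the submitters' processing notes, reads were trimmed (Trimmomatic 0.39), mapped to mm10 with HISAT under a strand-specific setting, and assigned to GENCODE genes by HTSeq, and the counts the authors deposited are raw. Peaks were called by the authors with MACS2 per library and strand. The deposited peak lists give a score, a fold enrichment (a ratio over control at the summit), −log10 p and −log10 q, and which Input served as control is not given in the sources used here.

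Counts were fitted with edgeR 4.0.16 (quasi-likelihood F test, TMM scaling, R 4.3.3), on genes that reached 10 counts in 3 or more libraries, in one fit of the 12 Inputs (16090 genes) and one of all 24 libraries (17373 genes). The common coefficient of variation was 5.57% and 4.98%. Calls required p under 0.05 after Benjamini-Hochberg adjustment over all genes of a fit. The 95% intervals used the normal quantile and an SE derived from the F statistic. They are therefore narrower than the test implies and can exclude 0 without a call. CPM values were scaled with the TMM factors of the 24-library fit. Of 54446 identifiers, 54409 were found in GENCODE vM21 (GRCm38), the source of names and positions, and sequences were read from that genome, to which all 9 member transcripts were identical. Reads outside annotated genes (4.10 to 6.80% in Inputs, 2.97 to 3.73% in IP) and ambiguous reads (2.27 to 2.68% and 2.33 to 2.40%) were left out of library sizes. These shares are of the gene counts, reads outside genes and ambiguous reads together. Tests were checked on simulated counts.

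The 9 members were always named, with Ythdf2, Lyz2 and Itgam as checks, at most 3 called genes per list and direction in an Input contrast, and the 3 genes most like each member, and 1 gene that this rule names is not reported here. Members and gene lists were chosen with earlier results of these data known. Replicate numbers gave no sign of pairing the libraries (see the dependence on processing), no 2 libraries agreed within sampling noise, and the labels give no batch. Alternatives were DESeq2 1.42.0, its size factors, no or a stricter count minimum (50 counts), only the 6 libraries of a contrast, a replicate block, each library left out, and for peaks a 4-fold minimum or 2 of 3 libraries. Python 3.11.15, pandas 2.3.3, pysam 0.24.0 and matplotlib 3.10.9 were used.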

Additional observations from a re-analysis of the deposited data

Results flagged for a closer look

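The effect of irradiation on the Input level differed between the genotypes for 8 of the 9 members by the test of the difference itself (edgeR, cKO effect minus WT effect, log2 scale), where 30.2% of all genes were called. Chil3 gave 1.07, F13a1 0.65, Plac8 2.35, Ly6c2 0.46 and Hp 0.68. Vcan gave −0.50, Fn1 −0.94 and Thbs1 −0.64. The Plac8 value rests on few counts in the WT IR Inputs and was 3.25 without replicate 2 of that group.

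The ratio of IP over Input (log2 scale) differed between cKO Ctrl and WT Ctrl for 5 of the 9 members, where 22.6% of all genes were called. Antibody capture and a difference in cells between Input and IP cannot be told apart in this ratio. Chil3 was higher by 1.16 in cKO, and Vcan was at −0.40, Hp at −0.29, Fn1 at −0.83 and Thbs1 at −0.13.

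The same ratio differed between IR and Ctrl, averaged over genotype labels, for 6 of the 9 members, where 48.4% of all genes were called. F13a1 differed by 2.0, Plac8 by 1.85, Fn1 by 1.56, Chil3 by 1.36, Thbs1 by 0.39 and Vcan by −0.33. Neutrophil genes moved with Chil3, F13a1 and Plac8 in this ratio, while progenitor genes were close to 0 CPM in the IR Inputs. The part of either was not tested. Groups of 3 libraries were too small for a test of single outlying libraries.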

How the results depend on the processing

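Across the 12 contrasts, members called ranged from 5 to 8, and none of the alternatives turned the direction of a called member. On leaving out each library in turn, the count of members called was 7 to 8 in WT IR against WT Ctrl, 6 to 7 in cKO IR against cKO Ctrl, 6 to 7 in cKO Ctrl against WT Ctrl and 6 to 8 in cKO IR against WT IR, and it was 8 throughout for the difference between irradiation effects. Over all member values, leaving out 1 library kept direction and side of the threshold in 2030 cases, lost the call in 13 and gained it in 9, and the other settings did so in 595, 2 and 3. Calls lost outside these were Plac8 in cKO IR against WT IR with only the 6 libraries fitted (edgeR adjusted p 0.0968) and Ly6c1 in IP over Input after IR without a count minimum (0.119). Hp in cKO IR against cKO Ctrl (0.08) passed with only the 6 libraries fitted (0.00764), and Plac8 between the Ctrl IP libraries (−0.68) passed under DESeq2 (0.016) and without a count minimum (0.0326). F13a1 between the irradiated IP libraries lost its call without any 1 of 3 libraries (0.0522 to 0.0850). Over all genes, cKO Ctrl against WT Ctrl gave 2520 calls, and 3870 with only its 6 libraries. With peaks of at least 4-fold enrichment, 1 member kept a consensus stretch in WT Ctrl (against 2) and 1 in labelled WT IR (against 5). Leaving out a library moved the number of members with a stretch to 2 to 3 in WT Ctrl and 3 to 4 in labelled cKO IR. A change of Ly6c1 under about its 95% interval was not detectable at 8 to 24 counts.

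Same-numbered libraries did not deviate together, with correlations of −0.20 to 0.15 between Input groups (1 of 18 above 0.1) and −0.15 to 0.06 between Input and IP (0 of 12). The numbers thus gave no sign of pairing, but such correlations cannot show that same-numbered libraries had separate sources. With the replicate block the members called were 7, 6, 7, 8 and 8 in the 5 Input contrasts and 8, 8, 5, 8, 6, 5 and 6 in the 7 IP contrasts, the same counts as without it, and all genes called in WT IR against WT Ctrl went from 5100 to 4883.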
